A study of Homo sapiens with 5 samples.

Results

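A set of 57 genes of the G2 phase and mitosis, out of 33538 genes in the deposited matrix, was followed through single-cell RNA profiles of MDA-MB-468, an established human line of triple-negative breast cancer. The members were taken from a fixed list of names. Most of these belong to the list commonly used to score G2 and M phase in single cells. None was chosen by its level here, but earlier results of these data were known when the list was made. Cells of 5 samples carried a hashtag antibody each and were run as 1 library, with 1 sample per group. The HA system had a control and a FOSL1 sample, and the VPR system had a control and 2 FOSL1 samples made with the guide RNAs gRNA2 and gRNA3. The product of FOSL1 is FRA-1, which pairs with JUN proteins to form AP-1. The labels spell out neither HA nor VPR, name no clone and no promoter for the constructs, and do not say whether these samples were among those of the series treated with 5-fluorouracil. The hashtags of the HA pair read GOF in place of HA and were assigned by elimination. Each FOSL1 sample against the control of its own system is called an arm below, and both guide arms share the VPR control.

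Commitment to mitosis turns on the kinase CDK1 bound to cyclins A and B, which is held inactive by WEE1 and released by CDC25 phosphatases. Polo-like and Aurora kinases then build the spindle, the checkpoint kinases wait for every kinetochore to be attached, and the anaphase-promoting complex (APC/C) destroys cyclin B to let the cell exit. Transcripts of most of these genes climb together in G2, under the MuvB complex with B-MYB and FOXM1, which reads a promoter element called the cell cycle genes homology region (CHR), while NF-Y binds CCAAT boxes nearby.

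The promoters below are of 5 members that act at successive steps of mitosis, from cyclin B to exit. TTTGAA or TTCGAA, the CHR letters searched, stand beside CCAAT boxes in 4 of them, and CCNB1 has CCAAT boxes without either. RefSeq promoter windows (GRCh38.p14) matched 49 of the 57 members by symbol. Each line gives 130 bases before and 20 bases after the annotated start, 5′ to 3′ on the strand of the gene. Capitals mark CHR letters (TTTGAA or TTCGAA) and CCAAT boxes on either strand. CCNB1 lies at chr5:69167020-69167169 on the plus strand, CCNB2 at chr15:59105016-59105165 on the plus strand and CDC20 at chr1:43358851-43359000 on the plus strand. PLK1 lies at chr16:23678759-23678908 on the plus strand and BUB1 at chr2:110678044-110678193 on the minus strand.
CCNB1: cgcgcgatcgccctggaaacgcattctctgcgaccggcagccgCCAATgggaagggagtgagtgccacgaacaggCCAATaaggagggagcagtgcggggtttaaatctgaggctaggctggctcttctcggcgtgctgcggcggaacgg
CCNB2: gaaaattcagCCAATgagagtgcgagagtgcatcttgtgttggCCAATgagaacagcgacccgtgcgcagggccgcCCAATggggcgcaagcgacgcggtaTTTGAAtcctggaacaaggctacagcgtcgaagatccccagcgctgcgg
CDC20: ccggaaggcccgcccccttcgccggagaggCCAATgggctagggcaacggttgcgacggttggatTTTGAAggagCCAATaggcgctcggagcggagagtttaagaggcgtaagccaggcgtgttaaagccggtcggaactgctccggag
PLK1: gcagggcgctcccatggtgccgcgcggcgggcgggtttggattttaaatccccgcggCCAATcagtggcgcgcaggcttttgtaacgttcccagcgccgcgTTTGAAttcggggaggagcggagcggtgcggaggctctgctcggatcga
BUB1: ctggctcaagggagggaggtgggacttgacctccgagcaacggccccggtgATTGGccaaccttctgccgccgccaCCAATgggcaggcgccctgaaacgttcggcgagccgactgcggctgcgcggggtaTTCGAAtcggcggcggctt

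CCNB2 and PLK1 carried TTTGAA at the same place, position -29 from the start site, and CCNB2 had evenly spaced CCAAT boxes at -120, -87 and -54. CCNB1 had CCAAT boxes at -87 and -55 and neither TTTGAA nor TTCGAA in its window. CDC20 had CCAAT boxes at -100 and -55 around its TTTGAA at -65. In BUB1 the CHR letters were TTCGAA, and 1 of its CCAAT boxes lay on the other strand. The windows of 300 bases (250 before and 50 after the start) were searched on both strands for the letters TTTGAA and for their variant TTCGAA, which is its own reverse complement. CCAAT was searched on both strands as well, whether or not matches overlapped. Other variants of the CHR were not searched, so a window without these letters may still hold one. CHR letters were found in 34 of the 49 member windows (69.4%) and in 16.6% of all 27305 windows. CCAAT was found in 33 of 49 (67.3%) against 35.7%, and both in 27 of 49 (55.1%) against 6.58%. At least 2 CCAAT boxes were present in 23 of 49 (46.9%) against 11.3%. A match is a description of letters and not evidence of a bound factor.

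The library was deep enough to count every member. Kept cells numbered 1826 to 4299 per sample with 42058533 to 85556699 UMIs (unique transcript tags) in all. Median UMIs per cell were 15402 in the HA control, 15810 to 18121 in the VPR samples and 20769 in HA FOSL1, whose cells were thus read most deeply. No barcode was shared between samples. FOSL1 itself was at 8.96 and 8.91 UMIs per 1000000 of the sample (CPM) in the HA and VPR controls, 63.5 CPM in HA FOSL1, 100.5 CPM with gRNA2 and 94.3 CPM with gRNA3. The epithelial marker EPCAM lay at 343 to 383 CPM and EGFR, which this line carries at high level, at 1829 to 2365 CPM. PGR was at 0 in all samples, ESR1 at up to 4.87 CPM and ERBB2 at 9.41 to 13.5 CPM. Leukocyte and endothelial markers reached at most 1.02 CPM, and of the fibroblast markers only COL1A1 exceeded that, at 2.21 to 4.30 CPM.

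Summed over all 57 members, G2 and mitosis RNA was at a similar share of each sample, with a HA ratio that moved with the choice of cells. The sum was 6074 CPM in the HA control and 5884 CPM in HA FOSL1, and 6157 CPM in the VPR control, 6221 CPM with gRNA2 and 5874 CPM with gRNA3. As a log2 ratio, the sum was -0.046 (95% interval -0.053 to -0.038) for HA, 0.015 (0.007 to 0.022) for gRNA2 and -0.068 (-0.075 to -0.061) for gRNA3. Between the controls, VPR over HA, it was 0.020 (0.013 to 0.027). The HA value was -0.19 in cells with at least 3000 genes and at most 10% mitochondrial UMIs (called the stricter cells below), and 0.0013 without the 10% of cells with the most UMIs. All intervals here cover counting error only, because no group had a replicate, and so no arm was tested by itself. Empty droplets held the members at 6391 CPM, close to the cells as a sum, but single members differed. CKS2 was at 540 CPM there against a mean of 363 CPM over the 5 samples, and HMGB2 at 351 against 260 CPM. MKI67 went the other way, at 96.5 against 154 CPM. In the summed RNA of a sample, fewer cycling cells and less RNA per cycling cell cannot be told apart, which is why single cells are counted further on.

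Levels of single members spanned from 12.4 CPM for the phosphatase CDC25C to 434 CPM for the beta-tubulin TUBB4B, with a median of 75.5 CPM over the mean of the 5 samples. Only tags near the 3′ end were counted, so these levels were not divided by transcript length. The most abundant members were TUBB4B, the CDK1-binding subunit CKS2, the kinetochore protein CENPF, the DNA-bending protein HMGB2, the topoisomerase TOP2A, the APC/C activator CDC20, the APC/C ubiquitin-conjugating enzyme UBE2C and the CDK-binding subunit CKS1B. These 8 genes gave 37.8% of the summed level. At least 100 CPM was reached by 20 members, and 4 stayed under 20 CPM. Tubulins, CKS1B and HMGB2 have close copies elsewhere in the genome, which can make their counts less certain.

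**Figure D1:**
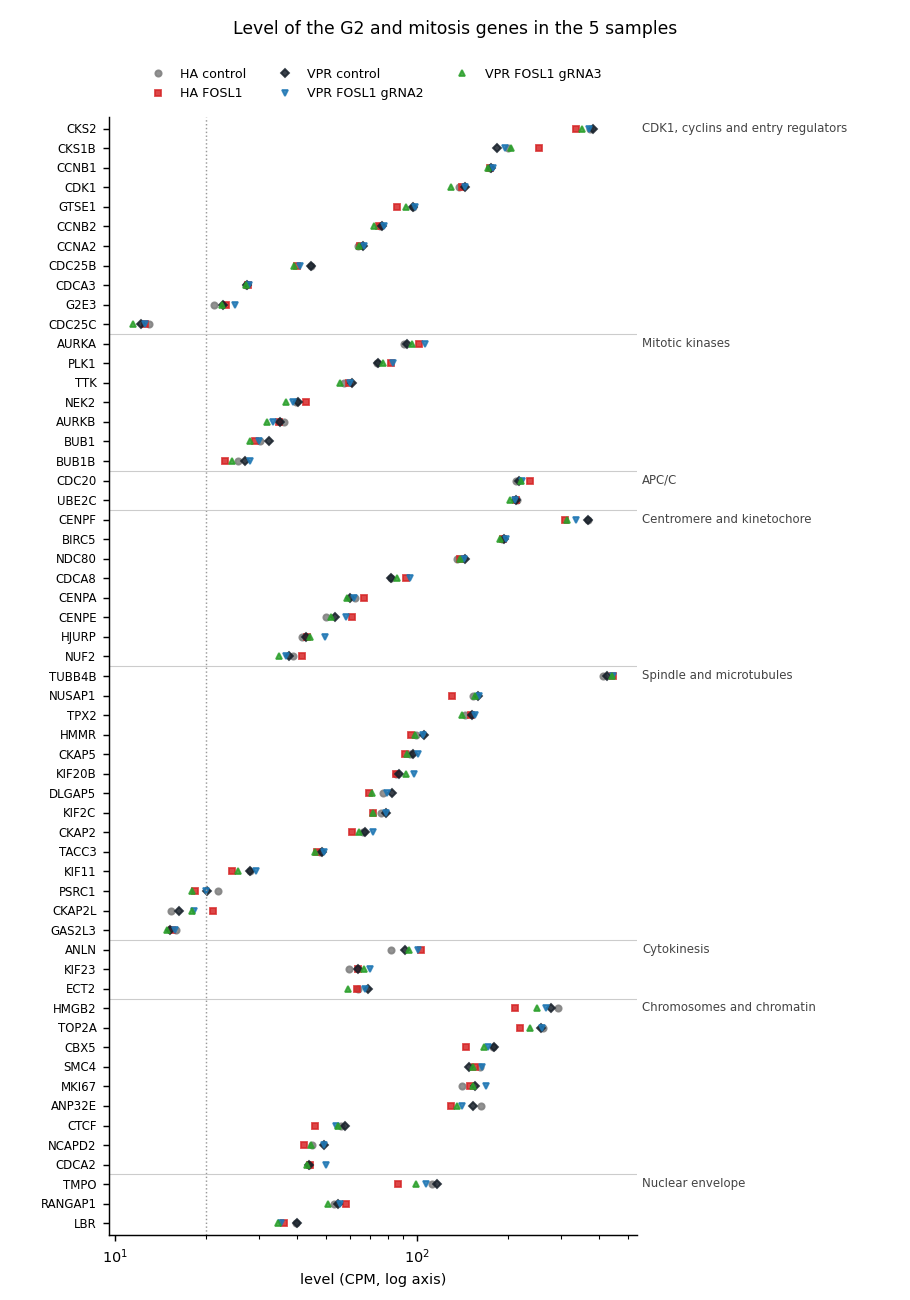
Level of each of the 57 genes in the 5 samples, in CPM (horizontal log axis), with genes grouped by role. Points of a gene mostly overlap, and HMGB2, TMPO and CKS1B show the HA FOSL1 sample apart from the rest; the dotted line marks 20 CPM.

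Member by member, few differences were large, and those that were sat in the HA arm. A gene was counted when the mean of the 2 samples was at least 20 CPM, and called higher or lower in an arm when its log2 ratio of CPM + 1 reached 0.322 either way, which is 25% above the control or the same factor below it. In the HA arm 54 members were counted, of which 2 passed that limit above the control (CKS1B and ANLN) and 3 below it (HMGB2, TMPO and ANP32E). That is 9.26% of the members counted, beside 22.8% of the 5748 genes at that level, 13.8% of them higher and 9.03% lower. With gRNA2, 0 of 54 members reached the limit, beside 5.44% of all genes (3.03% higher and 2.42% lower). With gRNA3 it was 0 of 53, beside 6.34% (3.22% higher and 3.12% lower). The controls differed that far in 0 members, beside 1.26% of all genes. Median ratios of the members were -0.011 for HA, 0.018 for gRNA2 and -0.080 for gRNA3, beside 0.004, 0.009 and 0.002 over all genes.

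A finer scale came from the controls themselves, whose members lay at most 0.15 apart (ANLN, log2). In the HA arm 6 members were higher than their control by more than that and 12 were lower, beside 27.2% and 24.4% of all genes. With gRNA2 it was 6 higher and 1 lower (LBR), beside 10.5% and 9.02%. With gRNA3 it was 0 higher and 9 lower, beside 11.3% and 12.3%. Of the 53 members counted with gRNA3, 42 had a ratio below 0 and 11 above it, beside 50.7% of all genes above 0. The VPR control to which gRNA3 is compared was itself above the HA control in 42 of 54 members, beside 61.5% of all genes.

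**Figure D2:**
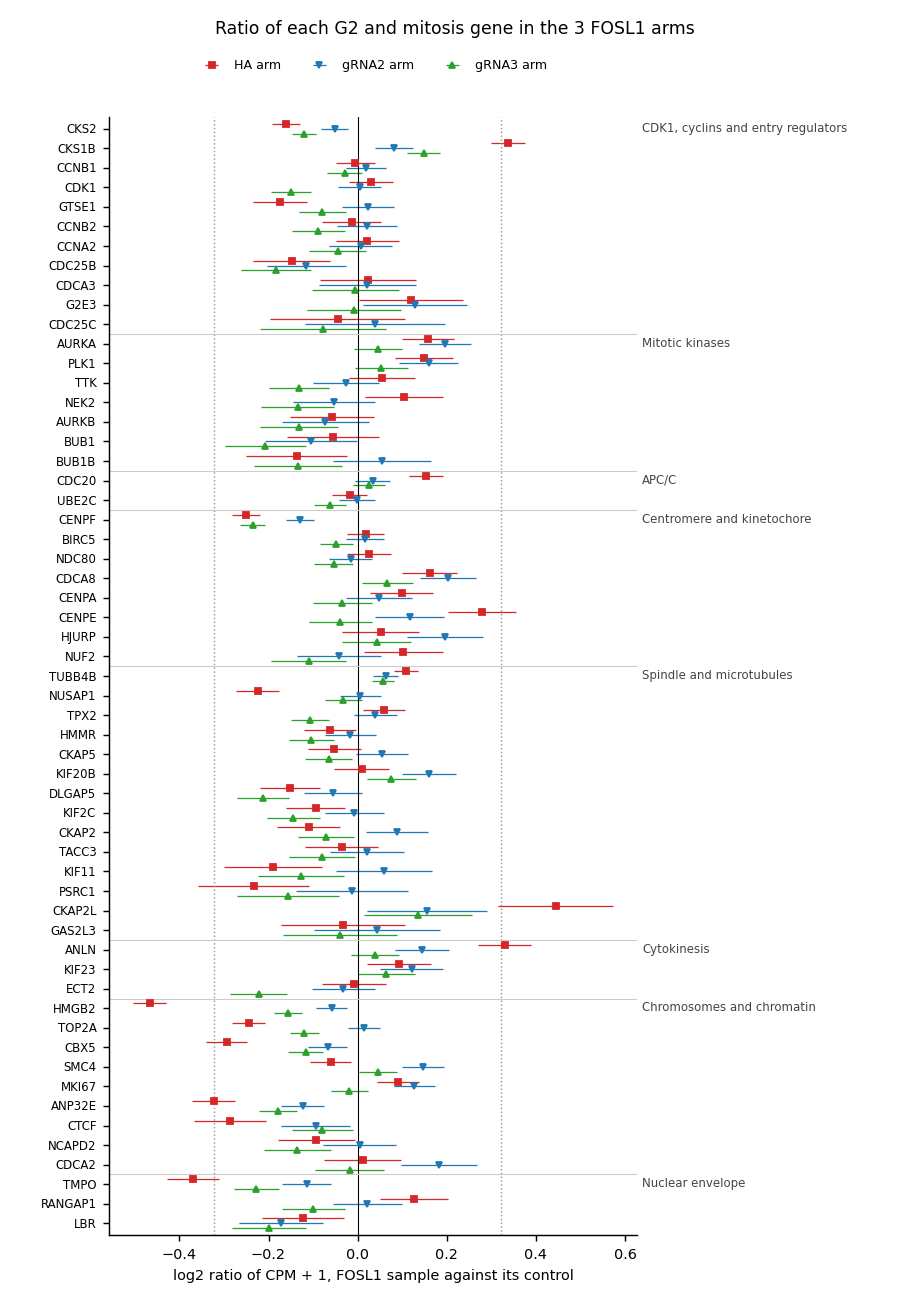
Log2 ratio of CPM + 1 of each gene in the 3 arms (horizontal axis), grouped by role, with 95% intervals that cover counting error only. Dotted lines mark 0.322 either way; the HA arm passes them for HMGB2, TMPO, ANP32E, CKS1B, ANLN and, under 20 CPM, CKAP2L.

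The cyclins of mitotic entry differed little between samples when all kept cells were used. CCNB1, cyclin B1, stood at 175 CPM in the HA control and 174 CPM in HA FOSL1, and at 176, 178 and 172 CPM in the VPR control, gRNA2 and gRNA3 samples. Its ratios were -0.005 (-0.049 to 0.038), 0.019 (-0.025 to 0.063) and -0.029 (-0.068 to 0.011), and every interval held 0. CCNB2, cyclin B2, followed at 75.5 and 74.8 CPM in HA and 76.6, 77.8 and 72.0 CPM in VPR. CCNA2, cyclin A2, was at 63.7 and 64.7 CPM in HA and 66.3, 66.7 and 64.3 CPM in VPR. Of these 3 cyclins, CCNB2 with gRNA3 lay farthest from its control, at -0.088 (-0.15 to -0.028). In the stricter cells the HA ratios were -0.24 for CCNB1, -0.21 for CCNB2 and -0.17 for CCNA2.

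CDK1 itself was at 138 and 141 CPM in HA, and at 144, 144 and 130 CPM in the VPR control, gRNA2 and gRNA3 samples. Its gRNA3 ratio of -0.15 (-0.19 to -0.11) was the only one of the 3 whose interval left out 0. CDC25B, a phosphatase that switches CDK1 on, was lower in each arm, at 44.7 against 40.2 CPM in HA and at 44.7 against 41.2 and 39.3 CPM in VPR. Its relative CDC25C was too low for a count, between 11.5 and 13.0 CPM in the 5 samples. GTSE1, which opposes p53 in G2, was at 97.1 CPM in the HA control and 86.0 CPM in HA FOSL1, and at 96.9, 98.5 and 91.7 CPM in VPR. The ubiquitin ligase G2E3 and CDCA3, an adaptor for the destruction of WEE1, lay between 21.3 and 27.7 CPM throughout.

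The CKS pair, small subunits that dock onto cyclin-dependent kinases, went apart in the HA arm. CKS1B, which also helps SKP2 to degrade the inhibitor p27, was at 200 CPM in the HA control and 253 CPM in HA FOSL1, and at 184, 195 and 204 CPM in the VPR control, gRNA2 and gRNA3 samples. HA FOSL1 was the highest sample by a clear margin, and the VPR control the lowest. The ratios were 0.34 (0.30 to 0.37), 0.081 (0.039 to 0.12) and 0.15 (0.11 to 0.19). CKS2 was at 375 and 335 CPM in HA and at 384, 370 and 353 CPM in VPR. Each FOSL1 sample was below its control for CKS2, by -0.16 (-0.19 to -0.13) in HA, -0.052 (-0.082 to -0.022) with gRNA2 and -0.12 (-0.15 to -0.093) with gRNA3.

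Mitotic kinases differed little and not all the same way. AURKA, the Aurora kinase of centrosomes and spindle poles, was at 91.0 CPM in the HA control and 102 CPM in HA FOSL1, and at 93.0, 107 and 96.1 CPM in the VPR samples in the same order as before. Both controls were below every FOSL1 sample, with ratios of 0.16 (0.10 to 0.22), 0.20 (0.14 to 0.25) and 0.046 (-0.007 to 0.10). PLK1, the polo-like kinase that drives entry and spindle assembly, was at 73.9 and 82.1 CPM in HA and at 74.4, 83.2 and 77.2 CPM in VPR. In the stricter cells both were below the control in HA, AURKA by -0.10 and PLK1 by -0.10. AURKB, the catalytic subunit of the chromosomal passenger complex at centromeres, was below its control in each arm, at 36.3 and 34.9 CPM in HA and 35.2, 33.4 and 32.0 CPM in VPR. The ratios were -0.057 (-0.15 to 0.037), -0.072 (-0.17 to 0.026) and -0.13 (-0.22 to -0.044), so the HA and gRNA2 intervals held 0. The HA ratio changed sign without the 10% of cells with the most UMIs, and with each cell weighing the same.

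The checkpoint kinases BUB1 and BUB1B (BUBR1) were among the weakest members. BUB1 was at 30.2 and 29.0 CPM in HA and at 32.4, 30.1 and 28.0 CPM in VPR, a gRNA3 ratio of -0.21 (-0.30 to -0.11). BUB1B was at 25.5 and 23.1 CPM in HA and at 27.0, 28.1 and 24.5 CPM in VPR. TTK, the checkpoint kinase MPS1, and NEK2, a kinase of centrosome separation, were above their control in HA, by 0.055 (-0.020 to 0.13) and 0.10, and below it with gRNA3, by -0.13 and -0.13. In the stricter cells both were below the control in HA, TTK by -0.069 and NEK2 by -0.11. Over the 7 kinases the median ratio was 0.055 in HA, -0.026 with gRNA2 and -0.13 with gRNA3.

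Of the APC/C members, CDC20, which brings substrates to the complex, was at 212 CPM in the HA control and 236 CPM in HA FOSL1, and at 217, 222 and 221 CPM in VPR. Its HA ratio was 0.15 (0.12 to 0.19), and -0.046 in the stricter cells. UBE2C, the enzyme that starts the ubiquitin chain, lay between 203 and 215 CPM in all 5 samples.

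Of the 8 kinetochore and centromere genes, 7 were above their control in HA and 1 below it, from -0.25 (CENPF) to 0.28 (CENPE). The median ratio was 0.076 in HA, 0.032 with gRNA2 and -0.044 with gRNA3. In the stricter cells BIRC5, NDC80, NUF2, CENPA and HJURP were below the control in HA as well. CENPE, the kinesin that pulls chromosomes to the spindle equator, was at 49.9 CPM in the HA control and 60.8 CPM in HA FOSL1, and at 53.6, 58.2 and 52.1 CPM in VPR. Its HA ratio was 0.10 in the stricter cells. CENPF, a large protein of the outer kinetochore, was at 367 and 309 CPM in HA and at 369, 337 and 313 CPM in VPR. The controls agreed on CENPF to 0.005 log2 and all 3 FOSL1 samples lay below them, by -0.25 (-0.28 to -0.22), -0.13 (-0.16 to -0.10) and -0.24 (-0.26 to -0.21). CENPA, the histone variant that marks the centromere, stayed between 58.6 and 67.0 CPM.

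CDCA8 (borealin), which anchors the passenger complex, was at 82.3 and 92.2 CPM in HA and at 82.0, 94.6 and 86.0 CPM in VPR, with both controls below every FOSL1 sample. Its ratios were 0.16 (0.10 to 0.22), 0.20 (0.14 to 0.27) and 0.067 (0.010 to 0.12). In the stricter cells they were 0.0015 in HA, 0.099 with gRNA2 and 0.012 with gRNA3. HJURP, the chaperone that loads CENPA, was at 41.8 and 43.3 CPM in HA and at 43.1, 49.5 and 44.4 CPM in VPR, and the gRNA2 sample stood above the rest. Of the other 3 in this group, BIRC5 (survivin), NDC80 and NUF2, the farthest from its control was NUF2, at -0.11 with gRNA3 and 0.10 in HA.

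Spindle genes had a median ratio of -0.078 in HA, 0.030 with gRNA2 and -0.080 with gRNA3. TUBB4B was at 413 CPM in the HA control and 446 CPM in HA FOSL1, and at 425, 444 and 442 CPM in VPR, so the FOSL1 samples were the 3 highest. KIF20B, a kinesin of the late spindle, was at 85.0 and 85.5 CPM in HA and at 87.3, 97.7 and 92.0 CPM in VPR. DLGAP5 (HURP), which stabilises spindle fibres near chromosomes, was at 77.4 and 69.6 CPM in HA and at 82.7, 79.6 and 71.3 CPM in VPR. NUSAP1, a microtubule bundler, was lower in HA FOSL1 alone, at 131 CPM against 153 to 160 CPM in the other 4 samples. TPX2, the activator of AURKA on spindle fibres, was at 144 and 151 CPM in HA and at 152, 156 and 141 CPM in VPR. KIF11, the motor that pushes the poles apart, was at 28.0 and 24.4 CPM in HA and at 28.0, 29.2 and 25.6 CPM in VPR. The microtubule-binding KIF2C, CKAP2, CKAP5, TACC3 and HMMR had ratios from -0.14 (KIF2C with gRNA3) to 0.088 (CKAP2 with gRNA2). PSRC1 and GAS2L3, also microtubule-binding, were low, at 18.1 to 21.9 CPM and 14.9 to 15.9 CPM. CKAP2L, a spindle-pole protein, had the largest ratio of any member in the HA arm at 0.44 (0.31 to 0.57), but from 15.3 to 21.2 CPM, a mean below the 20 CPM used for counts.

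For cytokinesis, ANLN (anillin), the scaffold of the contractile ring, was at 82.2 CPM in the HA control and 104 CPM in HA FOSL1, and at 91.5, 101 and 94.0 CPM in VPR. The ratio was 0.33 (0.27 to 0.39) in HA, 0.14 (0.085 to 0.20) with gRNA2 and 0.039 (-0.014 to 0.093) with gRNA3. In the stricter cells it was 0.091 in HA, 0.073 with gRNA2 and -0.028 with gRNA3. ANLN was also the member on which the controls differed most. Set against the VPR control, HA FOSL1 gave an ANLN ratio of 0.18. KIF23, a motor of the central spindle, was at 59.7 and 63.7 CPM in HA and at 64.0, 69.7 and 67.0 CPM in VPR. ECT2, which switches on RhoA at the cell equator, was at 63.8 and 63.4 CPM in HA and at 69.0, 67.5 and 59.0 CPM in VPR, a gRNA3 ratio of -0.22 (-0.28 to -0.16).

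The 5 lowest members in HA (HMGB2, TMPO, ANP32E, CBX5 and CTCF) were chromatin or nuclear envelope genes. Of the 5 lowest with gRNA2 (LBR, CENPF, ANP32E, CDC25B and TMPO), LBR, ANP32E and TMPO were. Of the 5 lowest with gRNA3 (CENPF, TMPO, ECT2, DLGAP5 and BUB1), only TMPO was. Median ratios in HA were -0.24 over the 9 chromatin genes and -0.12 over the 3 envelope genes. They were 0.004 and -0.11 with gRNA2, and -0.12 and -0.20 with gRNA3. HMGB2 was at 293 CPM in the HA control and 212 CPM in HA FOSL1, and at 278, 267 and 249 CPM in the VPR control, gRNA2 and gRNA3 samples. HA FOSL1 was the lowest of the 5 for HMGB2, at a ratio of -0.47 (-0.50 to -0.43) against -0.059 (-0.094 to -0.023) and -0.16 (-0.19 to -0.12) with the guides. TMPO, the lamina-associated polypeptide that tethers chromatin to the envelope, was at 112 and 86.8 CPM in HA and at 116, 107 and 99.3 CPM in VPR. ANP32E, a chaperone that removes the histone variant H2A.Z, was at 163 and 130 CPM in HA and at 153, 141 and 135 CPM in VPR. Both controls were above every FOSL1 sample for HMGB2, TMPO and ANP32E.

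CBX5 (HP1 alpha), a heterochromatin protein, was at 179 and 146 CPM in HA and at 181, 172 and 166 CPM in VPR. CTCF, an insulator-binding factor, was at 56.2 and 45.9 CPM in HA and at 57.8, 54.0 and 54.6 CPM in VPR. TOP2A was at 261 and 220 CPM in HA and at 258, 260 and 237 CPM in VPR. MKI67, the coat of mitotic chromosomes used as a proliferation marker, was at 141 and 150 CPM in HA and at 156, 170 and 153 CPM in VPR, and its HA ratio of 0.091 became -0.085 in the stricter cells. CDCA2 (Repo-Man), which recruits phosphatase 1 to chromatin, was at 43.8 and 44.1 CPM in HA and at 43.8, 49.9 and 43.3 CPM in VPR. The condensin subunits SMC4 and NCAPD2, which fold chromosomes, were at 162 and 155 CPM and at 45.1 and 42.3 CPM in HA. In VPR, SMC4 was at 149, 165 and 153 CPM and NCAPD2 at 49.2, 49.3 and 44.7 CPM. LBR, the lamin B receptor, was at 39.7 and 36.4 CPM in HA and at 40.1, 35.5 and 34.8 CPM in VPR. RANGAP1, the GTPase activator of Ran at nuclear pores and kinetochores, was at 53.1 and 58.1 CPM in HA and at 54.7, 55.5 and 51.0 CPM in VPR.

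To ask whether any member moved with FOSL1 across both systems, summed UMIs of all 5 samples were fitted in 1 edgeR model that takes the 3 FOSL1 samples as repeats and the system as covariate. The model called 0 of 57 members at a Benjamini-Hochberg adjusted p under 0.05, beside 1.61% of 15439 genes. At an unadjusted p under 0.05 it found 6 members higher and 6 lower, where 26% of all genes reached that level. DESeq2 called 0 members as well (4.73% of genes), with 5 higher and 4 lower at the unadjusted level. CENPF came closest, at -0.19 (SE 0.049, edgeR adjusted p = 0.101, lower in 3 of 3 arms). ANP32E (-0.20, adjusted p = 0.109) and TMPO (-0.23, adjusted p = 0.113) came next by edgeR, each lower in 3 of 3 arms, and CKS1B (0.23, adjusted p = 0.127) was the nearest on the higher side.

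Calls in this model rested on which sample was present. Without gRNA2 or without gRNA3 it called no gene at all (0% of 15405 and of 15199), while 17% and 15.6% of genes had an unadjusted p under 0.05. Without the HA control or without HA FOSL1, which leaves only the guides against the VPR control, CENPF was the 1 member of 57 called, lower (edgeR adjusted p = 0.0231 and 0.0472), beside 13% and 11.3% of all genes. Without the VPR control, which leaves only the HA pair with the spread of the guides, 9 members were called higher and 9 lower, beside 37% of all genes. In these fits the lone sample of a group is assumed to vary like the others. Testing every gene with at least 1 UMI called CKS1B higher (0.24, edgeR adjusted p = 0.0462), 1 member of 57 beside 8.39% of all genes.

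HMGB2 was the only member whose response differed between the systems by test. The interaction of system and FOSL1 state, with 1 residual degree of freedom, gave a VPR effect above the HA effect by 0.34 (SE 0.073, edgeR adjusted p = 0.00981), and DESeq2 called HMGB2 too (adjusted p = 0.0472). The edgeR test called 12.2% of 16071 genes and DESeq2 1.90%, so 1 of 57 members does not exceed either of these shares. Next were CKS1B (-0.24, adjusted p = 0.0541), ANLN (-0.26, adjusted p = 0.055) and CKAP2L (-0.34, adjusted p = 0.0559) in edgeR, where the HA effect was the larger. With DESeq2 size factors in edgeR those 3 genes were called as well, which makes 4 of 57 members beside 13.1% of all genes.

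The number of cells in which a member was seen depended on how deeply the cells were read. As sequenced, 56 of 57 members were found in a larger share of HA FOSL1 cells than of HA control cells, by a median of 6.96 percentage points. Over all genes 91.1% were higher, by a median of 7.35 points. After every cell was thinned to 5000 UMIs, which left out 5 to 13 shallower cells per sample, 39 of 57 were higher and the median difference was 0.80 points (range -7.50 to 7.40), beside 50.4% of all genes higher. With gRNA2 it was 52 members before thinning and 39 after it (82.5% and 53.4% of all genes), with medians of 2.26 and 0.43 points. With gRNA3 it was 51 before and 18 after (88.6% and 51.7% of all genes), with medians of 2.20 and -0.52 points. Over all genes the medians before thinning were 2.20 points with gRNA2 and 3.31 points with gRNA3.

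The thinned medians moved with the depth chosen. At 3000 UMIs per cell, 34 members were higher in HA, 31 with gRNA2 and 20 with gRNA3, with medians of 0.36, 0.11 and -0.52 points, beside 51.4%, 53.1% and 51.5% of all genes. At 10000 UMIs it was 31, 40 and 23 members, with medians of 0.16, 0.88 and -0.48 points, beside 48.9%, 51.4% and 48.9% of all genes. The HA excess of members was thus smaller at both other depths. No cell type that lacks these genes was in the pool to set a background share.

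CKS1B was seen in 51.0% of thinned HA control cells (exact binomial 49.3% to 52.7%) and 58.4% of HA FOSL1 cells (56.1% to 60.6%), and in 49.3%, 51.7% and 52.8% of the VPR cells. This was the largest gain of any member in HA, and it was 77.5% against 88.2% unthinned. HMGB2 shares in HA were alike without thinning, at 79.4% and 79.7%, and apart with it, at 56.9% (55.2% to 58.6%) and 49.5% (47.2% to 51.8%). Thinned shares of CCNB1 were 40.1% and 42.0% in HA and 41.0%, 41.9% and 41.8% in VPR. PLK1 was found in 22.5% and 24.5% of HA cells and in 22.0%, 23.5% and 23.0% of VPR cells after thinning.

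**Figure D3:**
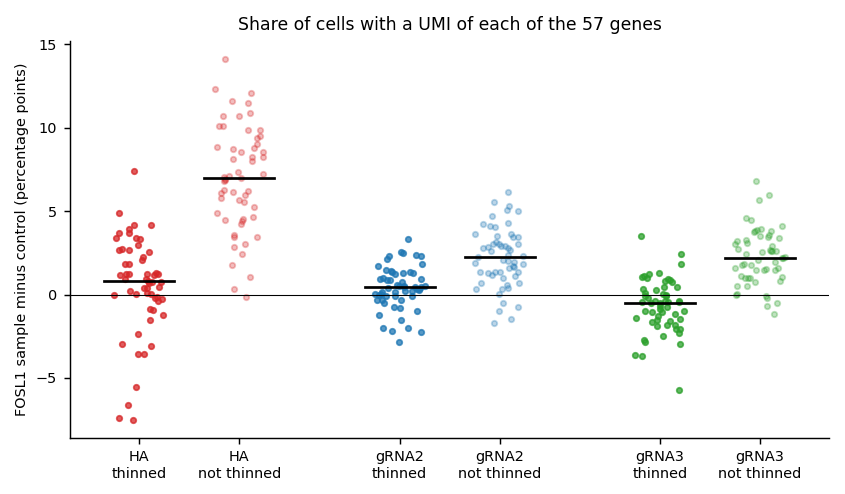
Difference in the share of cells with a UMI, FOSL1 sample minus its control in percentage points (vertical axis), for the 57 genes in each arm with and without thinning to 5000 UMIs; bars are medians. In HA the median is 0.80 points thinned and 6.96 points unthinned.

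Within single cells the members formed a long tail of cells rich in mitotic RNA. Per 5000 UMIs a cell held a median of 17 to 18 member UMIs in every sample, and the highest 10% held at least 61 in HA FOSL1 and at least 66 to 69 in the other 4. Means were 27.4 and 27.2 UMIs in the HA control and HA FOSL1, and 28.0, 28.3 and 27.0 UMIs in the VPR control, gRNA2 and gRNA3 samples. The HA FOSL1 curve thus had the same centre and a shorter upper tail.

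**Figure D4:**
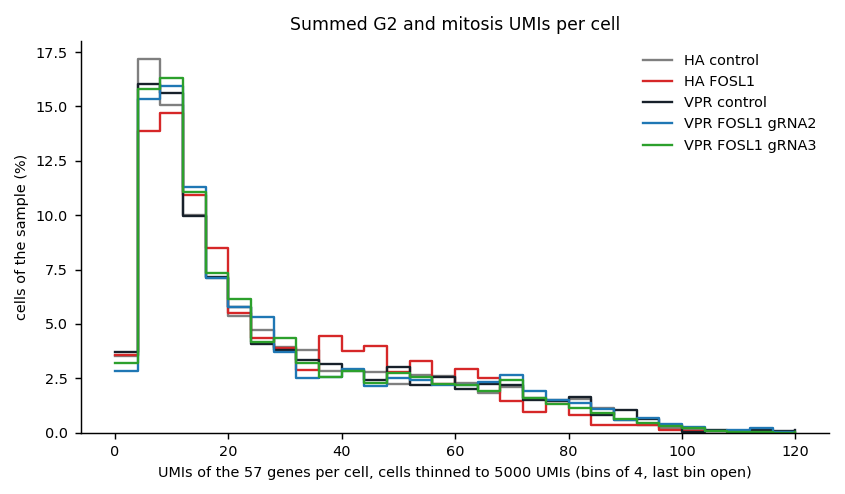
Distribution over cells of the summed UMIs of the 57 genes (horizontal axis, cells thinned to 5000 UMIs) as a percentage of the cells of each sample (vertical axis). The 5 curves overlap at their peak, and HA FOSL1 has fewer cells at the right end, where its highest 10% starts at 61 UMIs.

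To follow the members in dividing cells without using them to pick the cells, cells were split by 50 other mitosis genes. A cell was called mitosis-high when those genes summed to at least 41 UMIs per 5000, the 75th percentile of the controls. Mitosis-high cells were 25.2% (23.8% to 26.7%) of the HA control and 26% (24% to 28%) of HA FOSL1. They were 26.9% (25.2% to 28.6%), 25.5% (23.8% to 27.2%) and 24.5% (23.2% to 25.8%) of the VPR control, gRNA2 and gRNA3 samples. These intervals overlap, which is no test of a difference, and they cover counting error only. The class is a range of a score, with 3.25% to 4.07% of cells within 1 UMI of its limit, and STMN1 weighs most in it. Without STMN1 the HA FOSL1 share was 28.2% and the HA control share 26%.

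In controls, the split shows how strongly each member follows division. The median member was 1.95 log2 higher in mitosis-high than in other control cells, 53 members were at least 2-fold higher and 26 at least 4-fold. PLK1 was steepest at 2.88, from 25.5 to 197 CPM in the HA control, and CENPE stood at 18.8 and 129 CPM there. At the flat end CBX5 was only 0.20 higher, at 172 CPM in other cells and 196 CPM in mitosis-high cells of the HA control. The 27 members with both CHR letters and a CCAAT box had a median of 2.13, and the 22 matched members without both had 1.80. Over single cells, CENPF tracked the sum of the other members best (r = 0.69 to 0.73 in the 5 samples, over 1818 to 4289 cells at equal UMIs) and CBX5 least (r = 0.08 to 0.12).

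In the HA arm, and likewise with gRNA3, the summed members were below the control in mitosis-high cells and above it in the others. Mitosis-high cells of HA FOSL1 held fewer member UMIs, 55.3 per 5000 against 60.6 in the HA control, and their summed level was 11523 against 12502 CPM (log2 -0.12, -0.13 to -0.11). There 1 member passed 0.322 above the control (CKAP2L, beside 13.5% of genes) and 6 below it (HMGB2, NUSAP1, TOP2A, TMPO, ANP32E and CTCF, beside 9.13%). HMGB2 went from 562 to 377 CPM and TOP2A from 637 to 504 CPM in these cells. The remaining cells held slightly more, 17.3 against 16.2 UMIs (sum log2 0.043, 0.031 to 0.054). With gRNA3 the sum was -0.050 (-0.058 to -0.041) in mitosis-high cells and 0.041 (0.031 to 0.051) in the others. With gRNA2 it was above the control in both classes, at 0.043 (0.033 to 0.053) and 0.050 (0.038 to 0.062).

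In those remaining cells 5 members passed 0.322 above the control in HA FOSL1 (CKS1B, CDC20, ANLN, CENPE and PLK1, beside 14.3% of genes) and 2 below it (HMGB2 and TMPO, beside 9.72%). CENPE went from 18.8 to 34.0 CPM, a log2 ratio of 0.82 (0.69 to 0.96), whereas in mitosis-high cells it was 129 and 128 CPM. PLK1 went from 25.5 to 34.1 CPM outside the mitosis-high class and from 197 to 203 CPM inside it. HMGB2 was lower in both classes, by -0.57 (-0.63 to -0.52) and -0.35 (-0.41 to -0.30). TUBA1C, CDKN3, JPT1 and FAM83D, which enter the sum that sets the class, had a larger HA than VPR effect, and their part in these values was not tested. With the guides, 0 members reached that limit in either class. The shares of all genes past it in mitosis-high cells were 3.10% higher and 3.00% lower with gRNA2, and 3.37% and 4.03% with gRNA3. In the remaining cells they were 3.28% and 2.39% with gRNA2, and 3.54% and 3.10% with gRNA3.

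**Figure D5:**
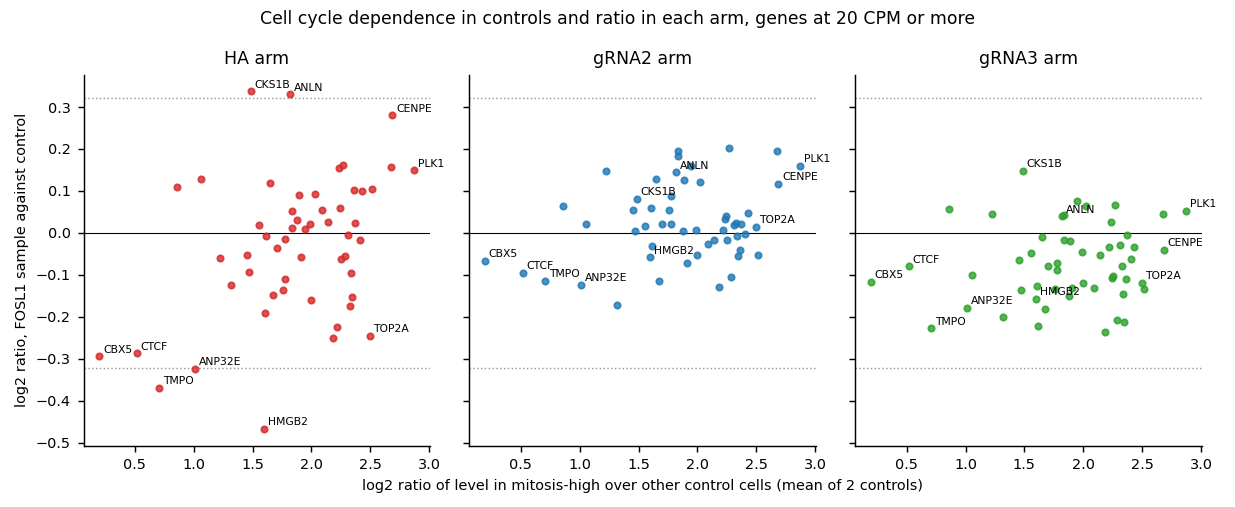
Log2 ratio of each gene in an arm (vertical axis) against its log2 ratio of mitosis-high over other control cells (horizontal axis), for the 53 genes at 20 CPM or more in all arms, 1 panel per arm; dotted lines mark 0.322 either way. In HA the 3 flattest genes (CBX5, CTCF and TMPO) are below 0 and the 3 steepest (PLK1, CENPE and AURKA) above it, while TUBB4B and RANGAP1 on the flat side are above 0 and TOP2A and DLGAP5 on the steep side below it.

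Across the 53 members plotted by arm ratio and rise in mitosis-high cells, Pearson's r was 0.38 in HA, 0.27 with gRNA2 and 0.14 with gRNA3 (Spearman's rho 0.32, 0.14 and 0.15). This is a description over genes that share libraries, and each ratio uses a control that also gives the rise.

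The other genes of the pathway, from lists that hold no member, were read in the same way. Of the 50 other mitosis genes, 42 were counted in HA, 3 of them past 0.322 above the control (CDKN3, TUBA1C and FAM83D) and 0 below it. Over all genes 13.8% were past it above and 9.03% below. With the guides 0 were past it either way, beside 5.44% of all genes with gRNA2 and 6.34% with gRNA3. CDKN3, a phosphatase that acts on CDKs, went from 142 to 203 CPM in HA and TUBA1C, an alpha-tubulin, from 399 to 530 CPM. The edgeR model called 0 of the 50, beside 1.61% of all genes. By unadjusted p (0.05) 10 were higher and 3 lower, where 26% of all genes reached that level. Beside 12.2% of all genes, the interaction called TUBA1C, CDKN3, JPT1 and FAM83D with the HA effect above the VPR effect. Their interaction values were -0.32, -0.32, -0.29 and -0.29, at edgeR adjusted p = 0.00704, 0.012, 0.0105 and 0.0268.

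Of 16 regulators of G2 and M transcription, 8 were counted in HA, 0 higher and 1 lower, beside 13.8% and 9.03% of all genes. The lower 1 was RBBP4, a histone-binding subunit of MuvB, from 202 to 154 CPM. MYBL2 (B-MYB) was at 115 and 117 CPM in HA and FOXM1 at 39.3 and 39.9 CPM. Among the 16, the edgeR model made 0 calls, beside 1.61% of all genes. By unadjusted p (0.05) 0 were higher and 1 lower, where 26% of all genes reached that level.

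Of 16 inhibitors of CDKs and G2 checkpoint genes, 9 were counted in HA, 2 past 0.322 above the control and 1 below it, beside 13.8% and 9.03% of all genes. With gRNA2, 1 was higher and 1 lower of 9 (3.03% and 2.42% of all genes), and with gRNA3, 2 and 2 of 9 (3.22% and 3.12%). The median ratio of the list was 0.081 in HA, -0.021 with gRNA2 and 0.026 with gRNA3. The model called 1 of the 16 higher (SFN) and 1 lower (CDKN1C), beside 1.61% of all genes called either way. SFN, the 14-3-3 sigma protein that holds CDK1 and cyclin B1 in the cytoplasm after damage, was at 213 and 428 CPM in HA and at 236, 340 and 366 CPM in VPR. It rose by 0.79 in the model (SE 0.11, edgeR adjusted p = 0.0474, 3 of 3 arms), and the HA effect was the larger (interaction -0.45, adjusted p = 0.00375). GADD45A, a stress gene whose product inhibits CDK1, was at 126 and 324 CPM in HA and at 147, 163 and 186 CPM in VPR (interaction -1.14, edgeR adjusted p = 4.59e-05). WEE1 was at 40.5 and 30.2 CPM in HA and at 37.6, 35.3 and 28.9 CPM in VPR. CDKN1A (p21) was low and went apart, from 9.99 to 14.6 CPM in HA and from 8.87 to 6.87 and 5.86 CPM in VPR (interaction -1.06, edgeR adjusted p = 0.000973). CDKN1C (p57), at 1.48 to 3.95 CPM, fell by 1.15 in the model (edgeR adjusted p = 0.0468, lower in 3 of 3 arms).

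The 42 S phase genes, which precede the members in the cycle, had 29 counted in HA. Of these 0 were higher and 1 lower (NASP, a histone chaperone, from 252 to 193 CPM), beside 13.8% and 9.03% of all genes. With the guides 0 were past the limit, beside 5.44% of all genes with gRNA2 and 6.34% with gRNA3. Their sum was -0.076 log2 (-0.087 to -0.066) in HA, 0.027 (0.016 to 0.037) with gRNA2 and -0.004 (-0.013 to 0.006) with gRNA3. The edgeR model made 0 calls among the 42, beside 1.61% of all genes. By unadjusted p (0.05) 3 were higher and 4 lower, where 26% of all genes reached that level. The interaction called NASP and the helicase subunit MCM2, which were lower in the HA arm, at 0.24 and 0.43 (edgeR adjusted p = 0.0399 and 0.0245). These were 2 of the 42, beside 12.2% of all genes.

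RNA quality per cell moved with every arm. The median share of mitochondrial UMIs was 9.80% in HA FOSL1 against 11.5% in the HA control, and 10.6% with gRNA2 and 10.5% with gRNA3 against 11.3% in the VPR control. Median UMIs per cell were also higher in each FOSL1 sample than in its control. Keeping only the stricter cells left 949 HA FOSL1 cells and 826 HA control cells. In them 0 of 55 members passed 0.322 above the control in HA and 9 below it, beside 12.6% and 10% of all genes. Of the 26 members above the HA control in all kept cells, 19 were below it there. HMGB2 was then at -0.55 and CKS1B at 0.16. With the guides that filter gave 0 members in both directions, beside 2.88% higher and 2.42% lower with gRNA2 and 2.95% and 3.04% with gRNA3. The part of depth and mitochondrial share in the ratios was not tested.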

How the data were processed

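UMI counts of each gene in each barcode are raw in the deposited matrix, which the authors made with Cell Ranger 4 (per the file headers) on hg38 (per the submitters' processing notes). A deposited table by the authors assigns each called cell to a hashtag with a probability, a fraction of at least 0.900. The assigning tool was not given in the sources used here. Of 21228 called cells 15371 (72.4%) had 1 sample, and 14642 with at least 1500 genes and at most 20% mitochondrial UMIs were kept. Multiplets (5181) were left out, and doublets within a sample were not called.

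UMIs were summed per sample and scaled to CPM. Ratios are log2 of CPM + 1 with exact conditional binomial 95% intervals, shares have exact Clopper-Pearson intervals, and cells were thinned to 5000 UMIs for shares and classes. PCR and cell sampling add error that these intervals do not cover. Summed counts were fitted with edgeR 4.0.16 (R 4.3.3, TMM, filterByExpr, glmQLFTest), with 2 residual degrees of freedom for the model, and with DESeq2 1.42.0 as an alternative. The scripts were tested on simulated data. Empty droplets are 48909 barcodes with 10 to 100 UMIs.

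Members and lists were chosen with earlier results of these data known. The rule named the 8 most abundant members, the 5 highest and 5 lowest per arm, called members, 6 pairs or families and, per list, the 3 highest and 3 lowest in HA and any called gene. Of those list genes, the text gives the ones its counts turn on. Other genes named were added by role after their values were seen.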

Additional observations from a re-analysis of the deposited data

Results flagged for a closer look

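HMGB2, a DNA-bending chromatin protein, stood out because its ratio differed between the 2 systems by a test of the difference itself. The effect of the VPR guides minus the effect of HA FOSL1 was 0.338 on the log2 scale (SE 0.073, edgeR adjusted p = 0.00981). The ratio was -0.47 in HA, -0.059 with gRNA2 and -0.16 with gRNA3, so HMGB2 was lower than the control in 3 of 3 arms and farthest in HA. The test has 1 residual degree of freedom and took the 2 guides as repeats. It called 12.2% of 16071 genes, so 1 of 57 members does not exceed the share over all genes. With DESeq2, which called 1.90% of genes, the adjusted p of HMGB2 was 0.0472. HMGB2 was below the HA control in both cell classes, and in cells with at least 3000 genes and at most 10% mitochondrial UMIs its HA ratio was -0.55. HA FOSL1 cells also held more UMIs than the HA control cells (medians 20769 and 15402), and the part of that in the difference was not tested.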

How the results depend on the processing

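No paired analysis was possible because each group had 1 sample. Counting error was small for most members, while no group had a replicate to show other error. No alternative turned the direction of a member past 0.322 log2 at 20 CPM. In the HA arm the members past 0.322 log2 above and below the control numbered 2 and 3. They became 0 and 0 at 1.5-fold (5.97% and 2.19% of all genes), and 0 and 9 in cells with at least 3000 genes and at most 10% mitochondrial UMIs (12.6% and 10% of all genes). Only 1 was higher with a pseudocount of 5 CPM, and likewise 1 against the control of the other system.

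The log2 ratio of the summed members moved in size and, for HA and gRNA2, in sign. Its values for HA, gRNA2 and gRNA3 were -0.014, 0.029 and -0.025 with TMM factors, and -0.19, -0.0064 and -0.096 in the stricter cells. They were 0.0013, -0.011 and -0.040 without the 10% of cells with the most UMIs. Against the control of the other system they were -0.066, 0.035 and -0.048. With each cell weighing the same, HA was at -0.0099 and gRNA3 at -0.052. TMM also moved the median over all genes to 0.035 in HA, 0.023 with gRNA2 and 0.044 with gRNA3. The cause of these moves was not tested.

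Without thinning, 51 members were seen in a higher share of gRNA3 cells than of control cells. Mitosis-high cells cut at the 90th percentile were 10.0%, 9.08%, 10.6%, 10.8% and 9.19% of the HA control, HA FOSL1, VPR control, gRNA2 and gRNA3 samples. Without the 10% of cells with the most UMIs they were 23.4% in the HA control and 24.8% in HA FOSL1, and 24.8%, 23.4% and 22.9% in the VPR control, gRNA2 and gRNA3 samples. Without STMN1, an alternative chosen after seeing the data, HA FOSL1 had 28.2%, and without the 6 most abundant genes of the list it had 26%.

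The model called 1 member higher (CKS1B) when every gene with at least 1 UMI was tested (8.39% of all genes called). Leaving out 1 sample at a time gave 0 to 9 members called higher and 0 to 9 called lower, with 1 lower (CENPF) without the HA control and 1 without HA FOSL1, beside 13% and 11.3% of all genes. With DESeq2 size factors in edgeR, 3 members had a VPR effect called below the HA effect, where 13.1% of all genes were called.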
